A study of Mus musculus with 8 samples.

Results

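Iron-sulfur cluster assembly and heme synthesis were followed through 8 nuclear genes, Nfs1, Iscu, Hscb and Glrx5 for clusters and Alas1, Cpox, Ppox and Fech for heme, in alveolar macrophages that lack the mitochondrial transcription factor Tfam. The genes were chosen by name and role, and all 8 were found among the 12367 genes of the deposited table. The libraries came from alveolar macrophages of untreated mice aged 3 weeks, sorted from lung as CD45+ F4/80+ CD11c+ cells. Mice of one genotype, Tfam-fl/fl, carried the floxed alleles without Cre (WT), and mice of the other, CD11c-Cre Tfam-fl/fl, carried the same floxed alleles and a Cre under CD11c control (KO). Each genotype had 4 libraries, and each library pooled cells of 3 to 5 male and/or female mice. No Cre-positive group with intact Tfam was among the samples, so the Cre and the loss of Tfam cannot be told apart. Because the Cre follows CD11c, other CD11c-positive cells could lose Tfam too.

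Iron-sulfur clusters are built in the mitochondrial matrix. The cysteine desulfurase NFS1 delivers sulfur to the scaffold protein ISCU, the cochaperone HSCB with the chaperone HSPA9 releases the new cluster from the scaffold, and the glutaredoxin GLRX5 passes it on. Heme synthesis starts and ends in mitochondria: ALAS1 makes 5-aminolevulinate in the matrix in the rate-limiting step, enzymes of the cytosol build the ring, CPOX and PPOX oxidise it at the inner membrane, and ferrochelatase, FECH, which itself holds an iron-sulfur cluster, inserts the iron. Both cofactors end up in the respiratory chain, and macrophages also break down heme taken up with red cells.

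The 250 bases before the transcription start of Glrx5 and Ppox, 2 members that were lower in KO, are shown because both hold 4 CCAAT boxes, a promoter element bound by NF-Y. Both stretches come from RefSeq (GRCm38.p6), lie outside every annotated exon and are printed 5′ to 3′ on the strand of the gene, with each match to CCAAT or to its complement ATTGG in capitals.
Glrx5, chr12:105032368-105032617, plus strand: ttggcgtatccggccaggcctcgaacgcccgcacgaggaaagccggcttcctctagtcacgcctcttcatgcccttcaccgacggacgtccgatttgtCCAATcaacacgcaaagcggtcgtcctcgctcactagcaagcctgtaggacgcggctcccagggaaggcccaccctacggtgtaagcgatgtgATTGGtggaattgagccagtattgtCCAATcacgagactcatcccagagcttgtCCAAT
Ppox, chr1:171281187-171281436, minus strand: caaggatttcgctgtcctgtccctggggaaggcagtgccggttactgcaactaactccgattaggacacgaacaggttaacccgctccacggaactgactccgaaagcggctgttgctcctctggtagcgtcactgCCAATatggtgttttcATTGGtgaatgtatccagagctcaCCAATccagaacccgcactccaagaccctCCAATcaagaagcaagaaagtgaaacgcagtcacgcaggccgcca

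At least 1 CCAAT box was present in 33.8% of the 32851 promoters of the table, and 4 or more in 0.84%. The motif and the count of 4 were picked after these sequences had been read. The promoters of Nfs1, Alas1 and Cpox in the table held none in this window. Among the 5 motifs searched besides it, on both strands, the NRF1 element was present upstream of the second Alas1 start, within an annotated exon of Alas1, and in 0.782% of all promoters. The GABPA element CCGGAAG (6.91% of promoters) and the antioxidant element TGACNNNGC (10.2%) were present upstream of Nfs1, where the window overlaps an exon of Romo1. The amino acid response element TGATGCAA and the E-box CACGTG were in none of the windows of these 5 genes. A match describes the letters and is not evidence of binding. Iscu, Hscb and Fech were not searched.

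Read numbers are not in the deposited table, and those given here were inferred from the spacing of its values. By this inference the libraries held 20243772 to 30263201 reads in the listed genes. On the second principal component (12.8% of the variance) replicate 4 of both genotypes had the highest scores, 25.6 in WT and 14.1 in KO. Tfam fell in every KO library, from 26.1 to 35.2 in WT to 3.52 to 5.08 in KO (log2 fold change -2.55, adjusted p = 1.02e-06). All 12 markers of alveolar macrophages were in the table, and 2 of them rose and 5 fell. Their sums were 31285 to 33374 in WT and 33221 to 38630 in KO (exact two-sided permutation p = 0.0571). Of 11 erythroid markers, only the 4 globin genes were listed, with sums of 25.3 to 60.7 in WT and 12.9 to 68.0 in KO, and the defining genes Klf1 and Gata1 were not among the listed genes. Summed markers of interstitial macrophages and monocytes, 6 of 7 in the table and all 6 higher, were 36.2 to 58.5 in WT and 69.3 to 205 in KO (exact two-sided permutation p = 0.0286), with KO replicate 1 at the top. Sums lay at 47.3 to 127 in WT and 71.0 to 109 in KO for 6 epithelial genes and at 22.7 to 94.3 and 32.8 to 53.1 for 5 endothelial genes. They lay at 23.9 to 34.8 and 33.7 to 48.3 for 7 dendritic cell genes, 2 of which were called higher (exact two-sided permutation p = 0.0571). For 3 neutrophil genes, 1 of them called lower, sums were 13.8 to 41.7 and 12.1 to 21.1 (exact two-sided permutation p = 0.2). The 1 listed lymphocyte gene had 0.769 to 1.47 and 0.436 to 1.14. The part of these cells in the values of the 8 genes was not tested.

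Of the 8 genes, 5 passed the test and no common direction held: 2 rose in KO (Hscb and Iscu), 3 fell (Ppox, Alas1 and Glrx5), and Nfs1, Cpox and Fech did not pass. The test was limma on log2(value + 1) across 12163 genes, with an adjusted p under 0.05, and it called 38.7% of all genes, 18.7% as higher and 20% as lower. The share of members called, 5 of 8, was above that background, but the list is short and its count is a description without a test. The libraries did not overlap between genotypes for 3 of the 8 genes, 2 higher and 1 lower, against 37.7% of all genes, 18.1% higher and 19.6% lower. The median log2 fold change of the 8 genes was -0.0028, against -0.0063 over all genes (abbreviated log2FC, KO minus WT), and 20.4% of all genes changed by more than Hscb, the member with the largest change. Values are normalised values on a per-million scale, and a fold change on the log2(value + 1) scale understates the change of low genes. Among the 8 genes, the inferred reads per library ranged from 272 to 430 for Hscb, the lowest, and from 4085 to 9000 for Alas1, the highest. No single library could be left out with all 3 falls still called, and 1 of them was called without WT replicate 2, KO replicate 2 or WT replicate 3. Without both replicate-4 libraries, all 5 calls held, with log2FC of 0.29 for Iscu, 0.39 for Hscb, -0.39 for Glrx5, -0.30 for Alas1 and -0.43 for Ppox. In such bulk samples, fewer cells of a type and less RNA per cell cannot be told apart.

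**Figure D1:**
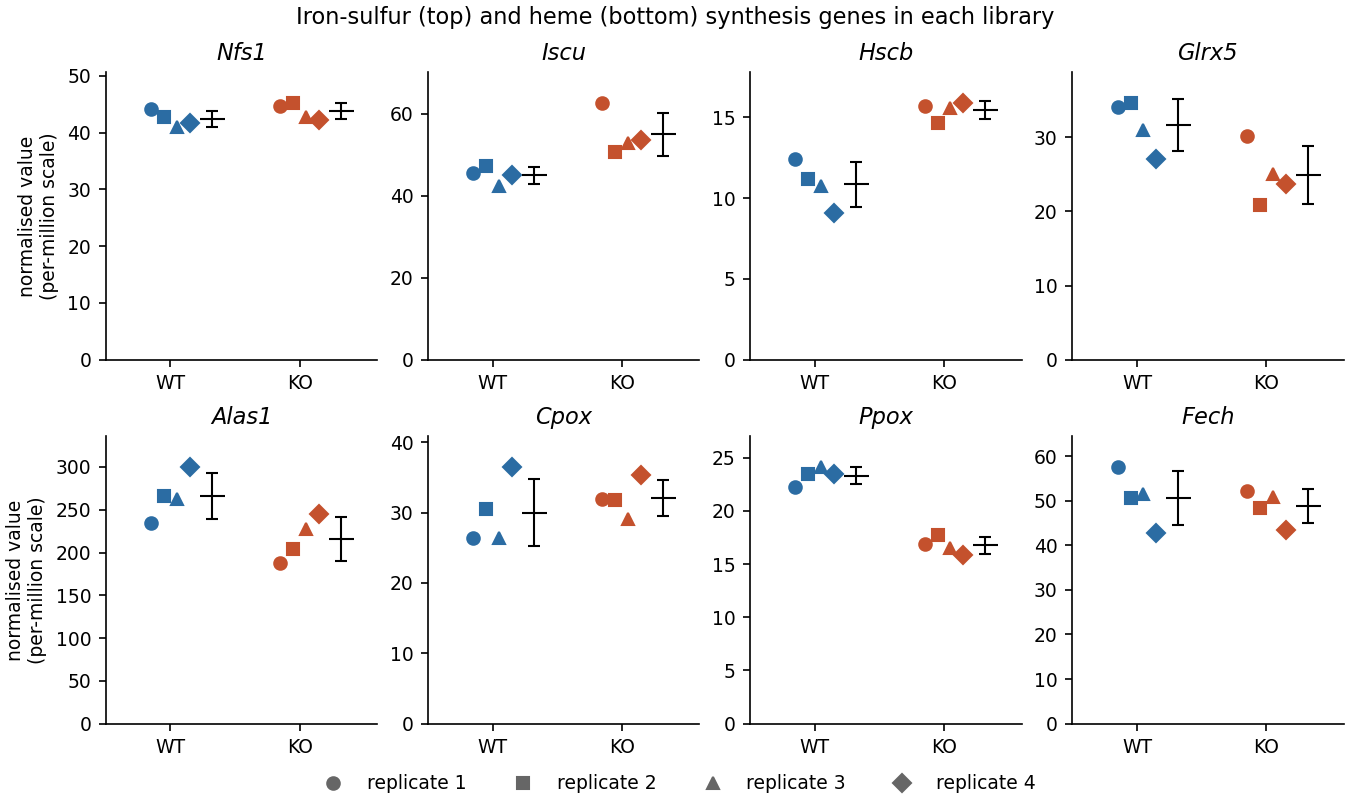
Normalised value (y axis, per-million scale, from 0) of each of the 8 genes in the WT and KO libraries, with 1 symbol per library, its shape giving the replicate number, and the mean ± SD of 4 libraries in black. The WT and KO points of Iscu, Hscb and Ppox do not overlap, whereas those of the other 5 genes do.

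Nfs1 encodes the desulfurase that supplies sulfur to the whole pathway, and it is the first step of cluster assembly. The gene (ENSMUSG00000027618) lies on the minus strand of chromosome 2, 156123639 to 156144186 in GRCm38. Its values were 44.2, 42.8, 41.0 and 41.7 in WT replicates 1 to 4 and 44.8, 45.2, 42.8 and 42.3 in KO replicates 1 to 4. The groups overlapped, and the log2FC was 0.043 with a 95% interval of -0.075 to 0.16 (adjusted p = 0.557). Any change of Nfs1 was therefore small, and its sign turned to -0.046 when the values were put on a plain per-million scale of the listed genes. Nfs1 shares 148 of its 3612 exon bases with Romo1 on the other strand and 256 with Gm28036 on its own strand, so that some reads cannot be assigned with certainty.

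Iscu encodes the scaffold on which the cluster forms. The gene (ENSMUSG00000025825) lies on the plus strand of chromosome 5, 113772748 to 113778288. It had values of 45.5, 47.3, 42.3 and 45.1 in WT and 62.6, 50.8, 52.9 and 53.7 in KO replicates 1 to 4. All KO pools lay above all WT pools, with KO replicate 1 the highest. Means were 45.0 ± 2.04 in WT and 55.0 ± 5.23 in KO (SD, n = 4), a rise of 22.1% and a log2FC of 0.28 with an SE of 0.073 and an adjusted p of 0.0132. By exact permutation, two-sided, p was 0.0286, below which 4 against 4 libraries cannot go. The call was lost without both replicate-1 libraries (adjusted p = 0.0516) and with plain per-million scaling (adjusted p = 0.0533), a log2FC of 0.22 and 0.19, respectively. KO replicate 1 was also the library with the highest summed interstitial macrophage markers, and their part in the Iscu values was not tested. Hscb, in contrast, had a log2FC of 0.53 without both replicate-1 libraries (adjusted p = 0.00871).

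Hscb encodes the cochaperone that brings the loaded scaffold to HSPA9. The gene (ENSMUSG00000043510) lies on the minus strand of the same chromosome, 110829070 to 110839777. Its values were 12.4, 11.2, 10.7 and 9.08 in WT and 15.7, 14.6, 15.6 and 15.9 in KO. The KO pools were closely spaced and all above WT. The mean went from 10.8 ± 1.38 to 15.4 ± 0.559, a rise of 42.4% (log2FC 0.48, SE 0.094, adjusted p = 0.00291, exact permutation p = 0.0286). Hscb passed at an adjusted p under 0.05 in all 22 alternatives run, with log2FCs of 0.37 to 0.54. Its start lies 202 bases from that of Chek2, a DNA damage kinase transcribed the other way, which had a log2FC of -0.31 and did not pass (adjusted p = 0.118). The divergent neighbour of Iscu, the splicing factor gene Sart3 at 238 bases, did not pass either (log2FC -0.11, adjusted p = 0.260).

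Glrx5 encodes the glutaredoxin that receives the cluster from the chaperones. The gene (ENSMUSG00000021102) lies on the plus strand of chromosome 12, 105032688 to 105042906. It had values of 34.1, 34.6, 31.0 and 27.1 in WT and 30.2, 20.8, 25.03 and 23.7 in KO. The groups overlapped through KO replicate 1 and WT replicate 4, but within each replicate number KO was the lower in all 4 pairs. Means were 31.7 ± 3.49 and 24.9 ± 3.94, a log2FC of -0.34 with an SE of 0.12 and an adjusted p of 0.0443 (exact permutation p = 0.0571). This call is close to the threshold: adjusted p was 0.109, 0.115 or 0.0728 when WT replicate 1, 2 or 3 was left out, 0.111, 0.0827 or 0.0853 when KO replicate 2, 3 or 4 was, and 0.057 with no variance trend. These fits ignore the replicate number, and with it as a block adjusted p was 0.0177.

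Within the cluster pathway the members thus moved apart. Such a split can be read without any library scale from the ratio of 2 genes in the same library. The log2 ratio of the Glrx5 to the Hscb value averaged 1.55 ± 0.0731 over the WT libraries and 0.679 ± 0.192 over the KO libraries (SD, n = 4), and the lowest WT library, at 1.46, lay above the highest KO library, at 0.945. The pair was picked after its values were seen, so no test is given, and a pseudocount of 5 moved the difference from -0.87 to -0.67.

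Alas1 encodes the first and rate-limiting enzyme of heme synthesis outside red cell precursors. The gene (ENSMUSG00000032786) lies on the minus strand of chromosome 9, 106233455 to 106248654. Its values were 234, 266, 262 and 300 in WT and 187, 204, 227 and 245 in KO. The groups overlapped only between KO replicate 4 and WT replicate 1, and KO was the lower in all 4 same-numbered pairs. Means were 266 ± 27.0 and 216 ± 25.3, a fall of 18.7% in the deposited values (log2FC -0.30, SE 0.096, adjusted p = 0.0333, exact permutation p = 0.0571). This call, too, was lost with no variance trend (adjusted p = 0.0525). Leaving out KO replicate 1 gave 0.0863 and KO replicate 2 gave 0.0819, and leaving out WT replicate 2, 3 or 4 gave 0.0724, 0.0599 or 0.0734. These fits ignore the replicate number, and with it as a block adjusted p was 0.000987. The antisense gene 4930500F10Rik overlaps 465 of the 6174 exon bases of Alas1 and has no value in the tested set.

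Cpox encodes coproporphyrinogen oxidase, the first of the late mitochondrial enzymes. The gene (ENSMUSG00000022742, chromosome 16, 58670292 to 58717636, plus strand) had values of 26.4, 30.6, 26.4 and 36.5 in WT and 31.9, 31.8, 29.0 and 35.4 in KO. WT spanned the whole range of KO, and the log2FC was 0.10 with an interval of -0.14 to 0.34 (adjusted p = 0.495).

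Ppox encodes protoporphyrinogen oxidase, the step after CPOX, and it was the member with the smallest p. The gene (ENSMUSG00000062729) lies on the minus strand of chromosome 1, 171275990 to 171281186. Its values were 22.2, 23.5, 24.1 and 23.4 in WT and 16.9, 17.8, 16.5 and 15.8 in KO. The groups were far apart relative to the spread within them. The mean fell from 23.3 ± 0.794 to 16.8 ± 0.799, by 28.2% (log2FC -0.45, SE 0.064, adjusted p = 0.000412, exact permutation p = 0.0286). It passed at an adjusted p under 0.05 in all 22 alternatives, with log2FCs of -0.54 to -0.38. However, 791 of its 4515 exon bases (17.5%) also belong to B4galt3, a galactosyltransferase gene on the other strand, which fell as well (log2FC -0.38, SE 0.080, adjusted p = 0.00473). The library kit keeps strand, but the strand setting of the counting is not given in the sources used here, and without it reads of the 2 genes cannot be told apart.

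Fech encodes ferrochelatase, which completes heme and depends on an iron-sulfur cluster. The gene (ENSMUSG00000024588, chromosome 18, 64452914 to 64490251, minus strand) had values of 57.5, 50.6, 51.6 and 42.8 in WT and 52.2, 48.4, 50.9 and 43.5 in KO. KO lay inside the WT range, and replicate 4 was the lowest in both genotypes. The log2FC was -0.049 with an interval of -0.26 to 0.16 (adjusted p = 0.717), and it was 0.014 without WT replicate 1 and 0.0035 without KO replicate 4. Ppox therefore separated from both of its neighbours in the pathway. Its log2 ratio to Cpox went from -0.349 ± 0.218 in WT to -0.932 ± 0.158 in KO, and its log2 ratio to Fech from -1.11 ± 0.206 to -1.54 ± 0.0994 (SD, n = 4). For both ratios the WT and KO libraries did not overlap, and these pairs too were chosen after their values were seen.

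Levels of different genes can be set side by side only per length, here per kilobase of the longest coding transcript of GENCODE M21. This need not be the annotation that was counted, nor need the longest transcript be the one expressed in these cells. The lengths ran from 804 bases for Hscb to 6571 for Fech, and the order of the genes depends on them. In WT, the level per kilobase was 78.1 ± 7.94 for Alas1, 32.3 ± 1.46 for Iscu and 20.7 ± 0.684 for Nfs1. It was 13.5 ± 1.71 for Hscb, 12.8 ± 0.436 for Ppox and 10.8 ± 1.19 for Glrx5, and 9.68 ± 1.54 for Cpox and 7.70 ± 0.921 for Fech were the lowest (SD, n = 4). Alas1, Iscu, Nfs1 and Hscb were set apart from one another in this order. However, Hscb overlapped Ppox, Glrx5 and Cpox, and Cpox also overlapped Glrx5 and Fech. In KO, Alas1 (63.5 ± 7.43), Iscu (39.4 ± 3.75), Nfs1 (21.3 ± 0.703) and Hscb (19.2 ± 0.695) kept their places, and Ppox at 9.20 ± 0.439 per kilobase came after Cpox at 10.3 ± 0.835, although these 2 overlapped. Glrx5 had 8.53 ± 1.35 and Fech 7.42 ± 0.584 per kilobase, and Glrx5 overlapped Fech, Ppox and Cpox.

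Around the cluster members, 18 further genes of mitochondrial assembly were tested, and 6 rose, 2 fell and 10 did not pass, with a median log2FC of 0.16. In all, 8 of the 18 were called, against 38.7% of all tested genes (18.7% higher and 20% lower). No list here or below was tested as a set. The genes of the scaffold and chaperone steps were among those that rose. Hspa9, the chaperone partner of HSCB, had 317 to 335 in WT and 522 to 814 in KO, the lowest KO value being that of replicate 4 (log2FC 1.11, SE 0.13, adjusted p = 0.000109). Fdx2, the ferredoxin that gives electrons for cluster formation on ISCU, went from 12.3 ± 0.908 to 17.1 ± 1.77 (log2FC 0.44, adjusted p = 0.00398). In the other direction, Lyrm4, the small partner that stabilises NFS1, fell from 46.6 ± 3.81 to 35.3 ± 4.55 (log2FC -0.40). Iba57, of the late-acting machinery for [4Fe-4S] clusters, had 13.0 to 14.9 in WT and 10.9 to 12.2 in KO (log2FC -0.27). Both falls lost the call without the replicate-1 libraries (adjusted p = 0.0532 and 0.105). The iron importer Slc25a37, the acyl carrier Ndufab1 and the late factors Isca1 and Bola3 had log2FCs of 0.26 to 0.42 and completed the risen set. The count of 6 was 3 without KO replicate 1, WT replicate 3 or KO replicate 3, and 2 with plain per-million scaling.

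**Figure D2:**
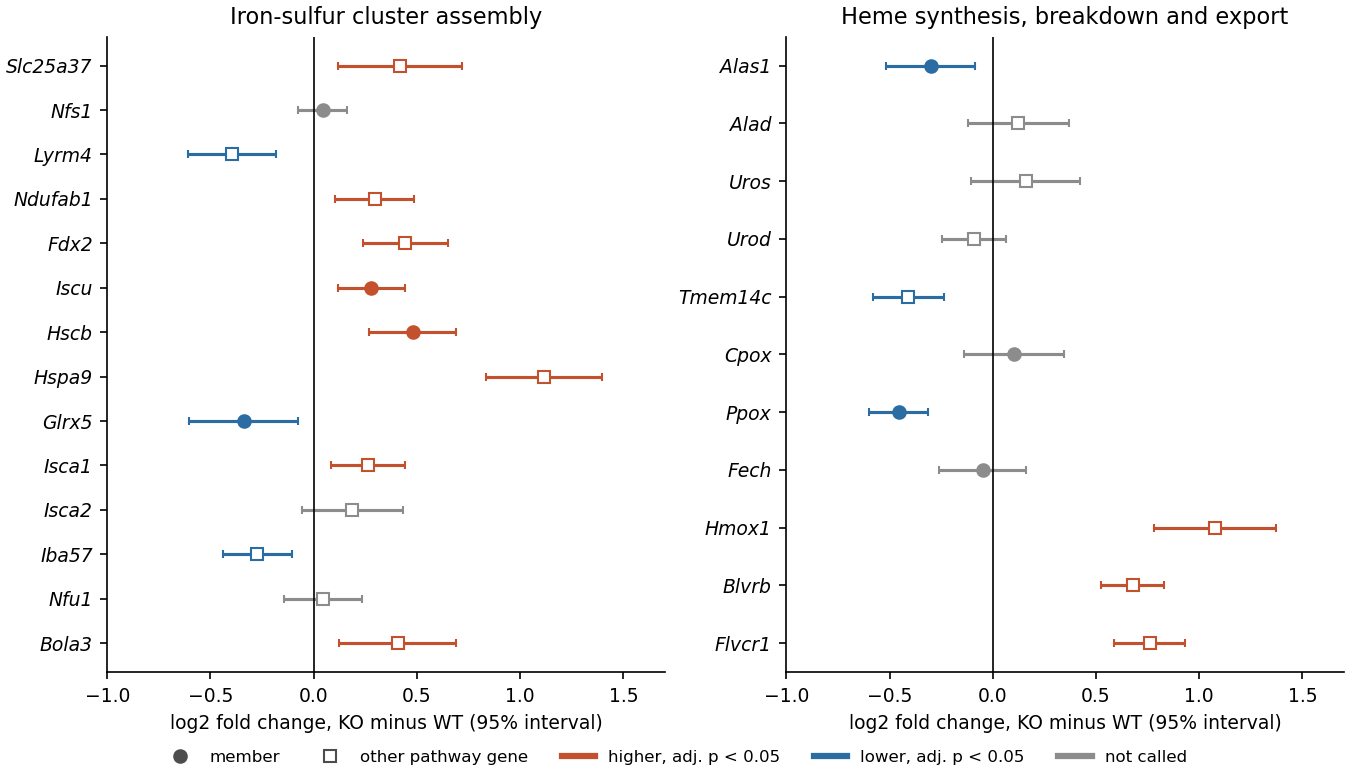
Log2 fold change, KO minus WT, with its 95% interval (x axis) for selected genes. Cluster assembly is on the left, and heme synthesis, breakdown and export are on the right. The order from top to bottom roughly follows the pathway, but Tmem14c is drawn above Cpox. Of the other mitochondrial assembly genes, all 8 that were called are drawn, but only Isca2 and Nfu1 of the 10 that did not pass. For breakdown and export only genes that rose are drawn, without Blvra, which fell. Filled circles are the 8 members and open squares other pathway genes, coloured by whether they passed as higher, passed as lower or did not pass. Hscb, Iscu, Fdx2 and Hspa9 lie to the right of 0 on the left side, and Alas1, Tmem14c and Ppox to the left of 0 on the right side.

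The cytosolic assembly machinery, which matures clusters for proteins outside mitochondria, had 2 of 11 genes higher and 2 lower, with a median of 0.053. Thus 4 of 11 were called, against 38.7% of all tested genes (18.7% higher and 20% lower). Ciao2a, a targeting factor that matures the iron regulatory protein encoded by Aco1, had 168 to 221 in WT and 125 to 145 in KO (log2FC -0.61, SE 0.092, adjusted p = 0.000611). The assembly ATPase gene Nubp2 fell from 39.5 ± 2.88 to 31.6 ± 2.29 (log2FC -0.32). Glrx3, a cytosolic glutaredoxin, rose from 83.6 ± 3.54 to 99.4 ± 1.93 (log2FC 0.25), and its partner Bola2 from 21.8 ± 2.66 to 28.8 ± 4.84 (log2FC 0.38). The Bola2 call was lost when WT replicate 1, 3 or 4 was left out (adjusted p = 0.0748, 0.0768 and 0.0607) and when KO replicate 1 or 3 was (0.0638 and 0.0508). Without KO replicate 1, WT replicate 3, KO replicate 3 or WT replicate 4, 1 gene was higher, and with the replicate number as a block 5 were.

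Among 12 tested genes of the rest of heme synthesis and its transport, 2 fell and 10 did not pass, with a median of -0.017. Over all tested genes, 18.7% were higher and 20% lower. Tmem14c, an inner membrane protein needed for the import of protoporphyrinogen, the substrate of PPOX, fell from 190 ± 2.07 to 144 ± 17.3 (log2FC -0.41, SE 0.078, adjusted p = 0.00249). Its values were 188 to 193 in WT and 128 to 167 in KO, so that the groups did not overlap. Without WT replicate 2, 3 or 4 or KO replicate 2 or 3, with quantile normalisation and with median centring, 1 gene of the list was lower. Further cytosolic enzymes did not pass: the log2FC was 0.12 for Alad (interval -0.12 to 0.37), 0.16 for Uros (-0.10 to 0.42) and -0.090 for Urod (-0.24 to 0.064). With the replicate block, 1 gene of this list was higher. The erythroid enzyme gene Alas2 is not among the listed genes.

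Of the 5 tested genes known to act on Alas1 expression or on its protein, 2 rose and 1 fell, with a median of -0.059. The shares over all tested genes were 18.7% higher and 20% lower. Ppargc1b, a coactivator of mitochondrial genes, fell (log2FC -0.62, adjusted p = 0.00498). Lonp1 and Clpp, proteolytic components of the matrix that turn over ALAS1, rose from 54.3 ± 0.932 to 71.5 ± 9.12 and from 15.0 ± 0.858 to 20.3 ± 2.41 (log2FCs 0.38 and 0.41). Lonp1 was not called without both replicate-1 libraries (adjusted p = 0.0564).

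Genes of heme breakdown and transport moved further than those of its synthesis, with 6 of 11 higher, 1 lower and a median of 0.25, a difference between lists that was not tested. For this list and the iron list below, the shares over all tested genes were 18.7% higher and 20% lower. The heme exporter gene Flvcr1 went from 29.6 ± 2.07 to 50.9 ± 4.09 (log2FC 0.76, SE 0.076, adjusted p = 5.68e-05) and the biliverdin reductase gene Blvrb from 22.4 ± 1.68 to 36.4 ± 1.45 (log2FC 0.68). Hmox1, the inducible heme oxygenase, had a log2FC of 1.08, and the other biliverdin reductase gene, Blvra, fell by 0.30 on the log2 scale. The count of 1 lower gene was 2 without KO replicate 4 and with the replicate block. In the list of iron uptake, storage and sensing, 5 of 11 rose and 6 did not pass, with a median of 0.19. The phagosomal iron transporter gene Slc11a1 had 2.80 to 5.58 in WT and 19.1 to 29.3 in KO (log2FC 2.40) and its relative Slc11a2 from 14.4 ± 1.36 to 25.2 ± 2.42 (log2FC 0.77). The ferritin chain genes Fth1 and Ftl1 had log2FCs of 1.19 and 0.95, of which that of Fth1 was 0.081 after quantile normalisation (adjusted p = 0.346), and the iron chaperone gene Pcbp2 had 0.36. Without KO replicate 4, 1 gene of this list was lower.

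**Figure D3:**
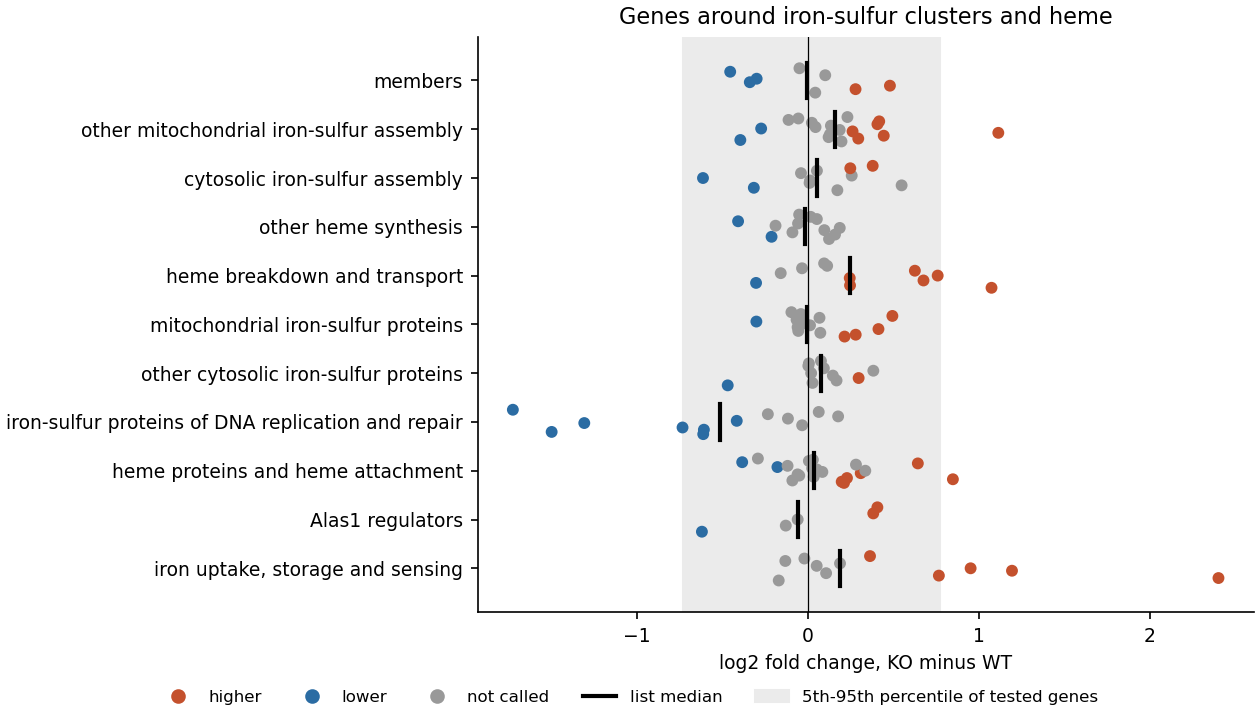
Log2 fold change, KO minus WT (x axis), of every tested gene in the 8 members and in 10 lists around them, 1 point per gene, coloured as higher, lower or not passed, with each list's median as a black bar. The grey band spans the 5th to 95th percentile of all tested genes, -0.73 to 0.77, and the members all lie inside it.

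The proteins that carry clusters were described in 3 lists. Of 14 genes for mitochondrial cluster proteins, 4 rose, 1 fell and 9 did not pass, with a median of -0.0027. Thus 5 of 14 were called, against 38.7% of all tested genes (18.7% higher and 20% lower). Ndufs7, a cluster subunit of complex I, rose from 28.3 ± 1.36 to 38.1 ± 2.26 (log2FC 0.41) and Cisd3, a small matrix cluster protein, from 6.68 ± 0.626 to 9.82 ± 0.665 (log2FC 0.49). Sdhb of complex II had a log2FC of 0.28, and Etfdh, which passes electrons from fatty acid oxidation to ubiquinone, fell by 0.30. Leaving out KO replicate 1, 2 or 3 ended the call of Sdhb (adjusted p = 0.0679, 0.0547 and 0.0778). The count of 4 was 2 without KO replicate 1, 2 or 3.

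Of 11 tested genes for cluster proteins of the cytosol outside DNA metabolism, 1 rose and 1 fell, with a median of 0.077. For this list and the DNA list below, the shares over all tested genes were 18.7% higher and 20% lower. The fallen gene was Aco1, whose protein is an aconitase with a cluster and an iron regulatory RNA-binding protein without one. Its values were 132 to 138 in WT and 88.1 to 105 in KO, with no overlap (log2FC -0.47, SE 0.060, adjusted p = 0.000245). Elp3, the catalytic subunit of a tRNA-modifying complex, rose by 0.30. The count of 1 higher gene was 2 without WT replicate 3 or KO replicate 4 and with the replicate block, and 3 with library quality weights. In the list of cluster proteins of DNA replication and repair, 7 of 12 fell and 5 did not pass, with a median of -0.51. Kif4, a chromosome motor, fell by 1.73 on the log2 scale and the DNA polymerase epsilon gene Pole by 1.50. The helicase gene Brip1 fell by 1.31 and the nuclease-helicase gene Dna2 by 0.73, and Pold1, Prim2 and Rtel1 made up the 7. The proteins of Pole, Pold1, Prim2 and Dna2 act in the copying of DNA, a task of dividing cells.

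For heme proteins and heme attachment, 6 of 21 tested genes rose and 2 fell, with a median of 0.034. Thus 8 of 21 were called, against 38.7% of all tested genes (18.7% higher and 20% lower). Cox10, which makes heme o on the way to the heme a of complex IV, rose from 13.2 ± 1.98 to 24.7 ± 4.87 (log2FC 0.85, SE 0.15, adjusted p = 0.00177), and Cox15, which acts after it, had a log2FC of 0.23. Cyba, the light chain of the phagocyte oxidase, rose from 366 ± 13.6 to 455 ± 27.7, and the electron carrier gene Cyb5a fell from 133 ± 2.49 to 118 ± 5.18. The Cox15 call was lost when WT replicate 1, 3 or 4 (adjusted p = 0.0648, 0.0555 and 0.0618) or KO replicate 1, 2 or 3 (0.0735, 0.0693 and 0.0772) was left out. The count of 6 higher was 2 when WT replicate 1 or 4 or KO replicate 1, 2 or 3 was left out, and 3 when WT replicate 3 was. The 2 lower were 4 without KO replicate 4, and 1 without any other single library but WT replicate 3.

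The genes whose profile over the 8 libraries came closest to that of Iscu were Cyba, Gpi1, Btf3, Eif3g and Drap1, at a mean absolute difference of 0.033 to 0.039 log2 units from it, among 9871 genes with a mean value of at least 5. Closest to Alas1 were Nans, Dock4, Jpt2, Gas8 and Foxp4, at 0.042 to 0.059. Profiles were taken relative to each gene's WT mean. Gpi1 is an enzyme of glycolysis, and Btf3 and Eif3g act in translation. Nans makes sialic acid.

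**Figure D4:**
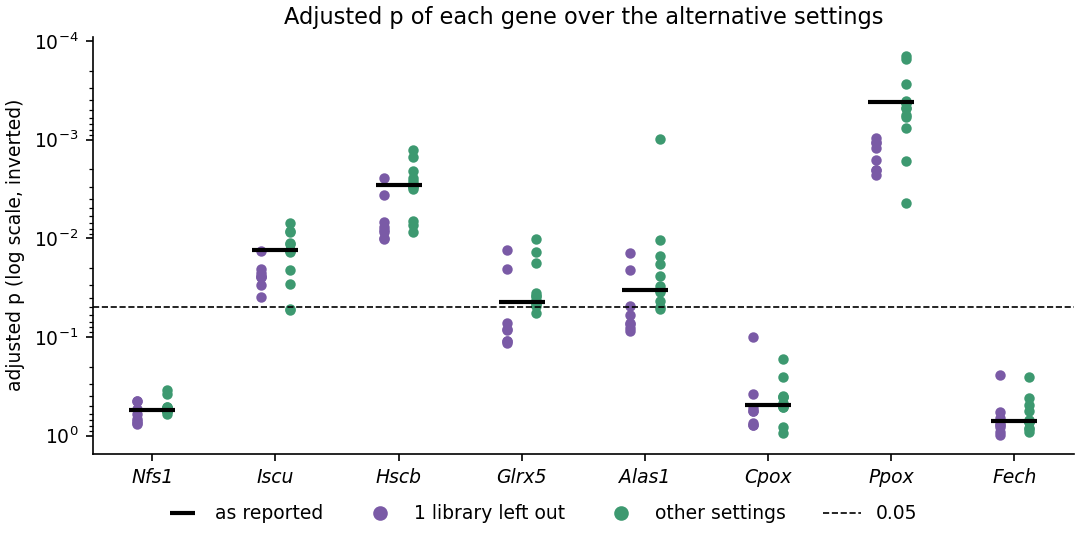
Adjusted p (y axis, log scale, inverted so that smaller values are higher) of each of the 8 genes as reported (black bars), with 1 library left out (purple) and under the other settings (green), with the threshold of 0.05 dashed. Hscb and Ppox stay above the line under every setting plotted, whereas Glrx5, Alas1 and Iscu lie on both sides of it.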

How the data were processed

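Poly(A) RNA of 8 libraries, 4 WT and 4 KO pools, was sequenced with a strand-keeping kit, per the labels' protocols. Per the submitters' processing notes, RSEM 1.3.1, cutadapt 1.7.1, CASAVA 1.8.2 and limma were used with the build GRCm38. For the aligner, the annotation release and the strand setting, the sources used here give nothing. For each gene in each library the authors deposited a single normalised signal on a per-million scale. Within a library the values are odd multiples of the lowest, as whole reads plus an offset of 0.5 would give, and reads were inferred from this spacing. On that reading 3 reads correspond to a value of 0.117 to 0.178. The inferred reads describe depth and enter only the voom weights among the alternatives.

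The 12163 of 12367 genes that reached 1 in 4 or more libraries were tested as log2(value + 1) with limma 3.58.1 (R 4.3.3), KO against WT, with a variance trend, two-sided, with Benjamini-Hochberg adjustment and a threshold of 0.05. Single values were compared by exact two-sided permutation tests. The scripts were tested on simulated data with independent libraries and no shared replicate effect, a check of the code and not of these calls. Nothing in the labels says what the replicate numbers mark. Same-numbered WT and KO libraries deviated together (r across genes 0.286 to 0.431, against -0.374 to 0.0917 for other pairs), so pairs are described by these numbers, as read from the data. The main fit and the permutation tests left this pairing out, and the replicate block was run only as an alternative. P-values of the main fit and the permutation tests therefore measure the spread between pools without regard to replicate number.

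Locations came from GENCODE M21 and promoters from RefSeq GRCm38.p6. The members and lists were chosen with earlier results of these data known. The text names, besides the members and Tfam, up to 4 called genes per list in order of p, every called gene of lists with 5 or fewer, and the 5 genes closest in profile to Iscu and Alas1. Slc25a37, Ndufab1, Isca1, Bola3, Pold1, Prim2, Rtel1, Alad, Uros and Urod lie outside this rule and were picked with their values known. Alternatives tried were other filters, pseudocounts, normalisations, weights and thresholds, a replicate block, and leaving out libraries. Plain per-million scaling and leaving out both replicate-1 libraries were chosen after seeing the data. Some genes are not reported here.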

Additional observations from a re-analysis of the deposited data

Results flagged for a closer look

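Of 88 groups of 4 libraries checked, 5 held a library that stood apart from the other 3 by more than Dixon's critical value, where chance gives about 1 in 20. None of the 5 concerned the 8 genes. WT replicate 4 was low for Nubp2 (35.3, others 40.4 to 41.3) and Sdhb (64.6, others 77.1 to 79.2). KO replicate 4 was low for Cox15 (32.3, others 37.1 to 37.5) and Lonp1 (58.0, others 74.6 to 77.6). WT replicate 3 was high for Flvcr1 (32.7, others 28.2 to 29.0).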

How the results depend on the processing

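Each gene was fitted under 22 alternatives. For the 8 members, 155 of 176 values kept their direction and call, 18 lost the call and 3 changed sign: Nfs1 with plain per-million scaling (-0.046), and Fech without WT replicate 1 (0.014) or KO replicate 4 (0.0035), its range with 1 library left out being -0.13 to 0.014. For 35 named genes of the lists, 739 of 770 values kept both and 31 lost the call. The causes were not tested. With the replicate block, the adjusted p was 0.00852 for Iscu, 0.00284 for Hscb, 0.0177 for Glrx5, 0.000987 for Alas1 and 0.000756 for Ppox, and no member's call changed. The block gave 5 higher cytosolic assembly genes, 1 higher and 2 lower genes in the other heme synthesis and heme breakdown lists, respectively, and 2 higher other cytosolic cluster proteins. At an adjusted p under 0.01, 1 member was higher and 1 lower. Counts were then 2 higher and 1 lower for mitochondrial assembly, 1 higher for cytosolic assembly, 1 lower for other heme synthesis, 2 higher for mitochondrial cluster proteins, 2 higher and 0 lower for heme proteins, and 1513 higher and 1543 lower over all genes. With plain per-million scaling, which moved the median of all genes to -0.090, 1 member was higher. Counts were 2, 1, 2 and 2 higher for mitochondrial assembly, cytosolic assembly, mitochondrial cluster proteins and heme proteins, and 2, 2, 4 and 1 lower for heme breakdown, mitochondrial cluster proteins, heme proteins and iron. Without both replicate-1 libraries, 1 member was higher, 0 mitochondrial assembly genes were lower, and 1 cytosolic assembly gene, 2 mitochondrial cluster proteins, 2 heme proteins and 1 Alas1 regulator were higher, with 1 heme protein lower. Without both replicate-4 libraries, counts were 1 higher for cytosolic assembly, 1 lower for other heme synthesis, 2 lower for heme breakdown, 2 higher for other cytosolic cluster proteins, 4 lower for heme proteins and 1 lower for iron. Library quality weights gave 3 higher other cytosolic cluster proteins, 4 lower heme proteins and 1 lower iron gene, quantile normalisation and median centring each gave 1 lower other heme synthesis gene, and no variance trend gave 1 lower member. With 1 library left out, 2 members were higher and 1 to 2 lower. The ranges were 3 to 6 higher for mitochondrial assembly, 1 to 2 for cytosolic assembly, 2 to 4 for mitochondrial cluster proteins, 1 to 2 for other cytosolic cluster proteins and 2 to 7 for heme proteins. Lower counts were 1 to 2 for other heme synthesis and for heme breakdown, 1 to 4 for heme proteins and 0 to 1 for iron. Leaving out 1 library, the log2 difference of summed markers was 0.13 to 0.21 for alveolar macrophages, -0.45 to 0.32 for erythroid genes, 0.045 to 0.71 for endothelium and 1.06 to 1.57 for interstitial macrophages and monocytes. Erythroid sums changed sign without WT replicate 3 (0.19), KO replicate 1 (0.065) or KO replicate 2 (0.32). The interstitial sums gave an exact permutation p of 0.0571 where a WT library was left out. Count tests with edgeR or DESeq2 were not run, because the deposited values are not counts.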

Other observations

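Among the 9246 tested genes with a promoter in the table, 165 held 4 or more CCAAT boxes, as Glrx5 and Ppox do. Of these 165, 15 (9.09%) were higher and 56 (33.9%) lower in KO, and their median log2 fold change was -0.14. Over all 9246 genes, 18.8% were higher and 20.9% lower, with a median of -0.012. Of the 5444 genes with no CCAAT box in the window, 20.4% were higher and 19.6% lower, with a median of 0.0047. Both the motif and the cut of 4 boxes were taken from the sequences of these 2 members, which fell, and the 165 genes include them. The counts are therefore a description, and no test was made. Alas1, which also fell, held 0 boxes in its windows. Genes with some boxes but fewer than 4 were not described as a group.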
